A study of Homo sapiens with 6 samples.

Results

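The nuclear-encoded subunits of the respiratory chain and of ATP synthase were followed in MDA-MB-436, an established human triple-negative breast tumour line. Members were the genes whose current symbol begins with NDUFA, NDUFB, NDUFC, NDUFS, NDUFV, SDHA to SDHD, UQCR, COX4 to COX8 or ATP5, and the rule itself uses no measured value. Of 19775 genes with a probe set of their own, 94 were members, read by 178 probe sets, and 18 further probe sets named a member together with another gene, which made 196 of 54613 probe sets. The 94 comprised 77 subunit genes (33 of complex I, 3 of complex II, 6 of complex III, 17 of complex IV and 18 of ATP synthase), 12 assembly factors that share the prefixes, and 5 noncoding RNAs or pseudogenes. A further 11 protein-coding genes fit the prefixes without a probe set of their own: 7 were named only together with other genes, and the rest were not analysed here.

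The 6 arrays were 3 of cells labelled wild type and 3 of cells labelled NF1-C2S transfected, all of MDA-MB-436 grown in RPMI-1640 with serum and insulin. The transfected cells stably carry a plasmid for NF1-C2, which belongs to the nuclear factor I-C proteins that regulate transcription, and their labels also write the construct as NF-C2. The labels name no cells with an empty plasmid, and the sources used here do not give whether the transfected cells were 1 clone or a pool. The labels number the replicates without naming separate cultures. The p-values therefore cover the spread among these arrays alone, and that spread may be technical. Values are log2 expression, a change is the transfected mean minus the wild type mean, and a call is an adjusted p under 0.05 from limma over all genes.

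NFIC, the gene of the factor on the plasmid, was compared in the fit over probe sets. Its result in the fit over genes, which defines a call, is not given here. The brightest NFIC probe set read 8.47 ± 0.06 in wild type and 8.25 ± 0.04 in transfected arrays (SD, n = 3; limma adjusted p = 0.082 over probe sets). None of its 4 probe sets passed in that fit. The sources used here do not say if these probe sets read the plasmid's message, and every direction below rests on the labels. The labels call the cells epithelial. The keratin KRT18 and vimentin, VIM, were bright in the wild type arrays (12.55 and 13.54) and fell by 0.93 and 0.52 in the transfected arrays (adjusted p = 0.000136 and 0.000644). Of 5 epithelial markers, KRT18 alone passed, and KRT8, EPCAM and KRT19 read 6.59, 5.71 and 4.01 in wild type and 6.64, 4.96 and 4.26 in transfected arrays. The part of these shifts in the members' changes was not tested. In the wild type arrays the defining markers of blood cells (PTPRC 3.65, CD3E 4.54) and E-cadherin (CDH1, 3.42) were under the median of all probe sets, 4.82. Array-to-array correlations were at least 0.992 within a group and 0.971 to 0.976 between groups. The RNA came from whole cultures, so fewer cells of a type and less RNA per cell cannot be told apart.

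The respiratory chain passes electrons from NADH (complex I) and succinate (complex II) through ubiquinone to complex III, then through cytochrome c to complex IV, where oxygen is reduced. Complexes I, III and IV pump protons across the inner mitochondrial membrane, and ATP synthase uses the gradient to make ATP. Most subunits are encoded in the nucleus, a small catalytic core in mitochondrial DNA, and the promoters of the nuclear genes are known for sites of NRF1, of the ETS factor GABPA and of YY1.

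The promoters shown belong to the largest fall and the largest rise among the subunits (NDUFA10 and NDUFS6), to the complex III and complex IV genes with the largest changes (UQCRC1 and COX7C), and to 2 further called genes that hold the NRF1 motif (ATP5F1C and SDHA). They were chosen after the values and matches were seen. Each is the 150 bases before the RefSeq start of transcription in GRCh38.p14, and capitals mark matches to the NRF1 motif.
NDUFA10 (chr2:240025343-240025492, minus strand): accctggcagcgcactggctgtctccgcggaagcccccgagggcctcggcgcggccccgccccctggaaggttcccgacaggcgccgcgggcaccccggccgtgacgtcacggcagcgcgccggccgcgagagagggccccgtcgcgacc
NDUFS6 (chr5:1801257-1801406, plus strand): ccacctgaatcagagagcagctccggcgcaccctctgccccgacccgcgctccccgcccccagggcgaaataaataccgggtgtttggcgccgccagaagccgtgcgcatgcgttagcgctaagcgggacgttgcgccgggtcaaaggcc
UQCRC1 (chr3:48609647-48609796, minus strand): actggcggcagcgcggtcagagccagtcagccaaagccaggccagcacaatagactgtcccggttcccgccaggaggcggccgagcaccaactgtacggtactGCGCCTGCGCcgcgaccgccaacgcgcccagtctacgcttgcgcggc
COX7C (chr5:86617791-86617940, plus strand): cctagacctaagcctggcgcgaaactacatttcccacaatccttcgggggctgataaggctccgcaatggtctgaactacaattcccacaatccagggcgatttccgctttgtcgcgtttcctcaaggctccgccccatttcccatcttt
ATP5F1C (chr10:7788027-7788176, plus strand): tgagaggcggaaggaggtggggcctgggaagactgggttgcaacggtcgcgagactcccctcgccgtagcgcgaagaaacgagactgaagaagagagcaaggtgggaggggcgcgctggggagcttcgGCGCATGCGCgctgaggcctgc
SDHA (chr5:218170-218319, plus strand): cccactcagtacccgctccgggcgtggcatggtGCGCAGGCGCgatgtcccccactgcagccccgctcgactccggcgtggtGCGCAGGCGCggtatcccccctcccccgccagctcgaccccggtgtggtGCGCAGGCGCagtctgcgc

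RefSeq windows from 250 bases before to 50 after the start were held for 80 of the 94 members. The NRF1 motif was first searched in its exact palindromic form of 10 bases (the match in ATP5F1C), which 5 of the 80 held (6.25%), against 1.24% of all 35116 windows and 2.04% of 15384 measured genes. After the promoter of UQCRC1 and others had been seen, the search was loosened to allow any base at the fifth position, the form in capitals above. These letters were found on either strand in 19 of the 80 (23.8%), against 5.78% of all windows and 9.9% of measured genes, and since the form was chosen on these promoters, the counts are a description. The letters CCGGAAG, which GABPA and other ETS factors bind, were found in 23 members (28.7%; 10.3% of all windows and 16.6% of measured genes), and the YY1 motif of 10 bases in 8 (10%; 1.2% and 2.24%). Among members that fell, rose or did not pass, the NRF1 letters were held by 9 of 34, 2 of 13 and 8 of 33, and the CCGGAAG letters by 12, 3 and 8. The full nuclear factor I palindrome, which dimers of that family bind, was in the window of none of the 80 members. Only 8 of 15384 measured genes (0.052%) held it, so its absence from 80 windows cannot set the members apart. Looser forms of this site were not searched.

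Respiratory chain transcripts were lower more often than higher on the arrays labelled transfected. Of the 94 members, 41 fell, 13 rose and 40 did not pass, that is 43.6% lower against 16.9% of all genes and 13.8% higher against 15.0%. Bright genes are called more often, and 75 members had a mean above 9, a level chosen after the values were seen. Of these 75, 34 fell and 13 rose (45.3% and 17.3%), beside 29.3% and 27.0% of all 3322 genes above that level, where 56.3% were called in either direction and 62.7% of the members. The median change was -0.16 over the members and 0.00 over all genes (-0.01 above level 9), the changes ran from -1.43 to 0.98, and the groups did not overlap in 69 of 94 members against 43.0% of all genes. Bright genes were apart more often, and above level 9 the groups did not overlap in 62 of 75 members and in 2506 of 3322 genes.

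Changes of members ran alongside those of neighbouring genes on the chromosome. In each array the median deviation of up to 20 measured neighbours was taken. The neighbours' change is the transfected mean of these medians minus their wild type mean. It went beyond 0.3 in either direction for 15 members. Over the 94 members a gene's change and that of its neighbours correlated at Pearson's r = 0.58 and Spearman's rho = 0.55. These points come from the same 6 arrays, and members that lie close together share neighbours. Neither the count beyond 0.3 nor the correlations are given here for all genes. The link is therefore not shown to be particular to the members. After the neighbours' deviation was subtracted in each array, 32 members were lower, 30 of them the same genes, and 7 were higher. Of all genes called after this subtraction, 49.1% were higher. The share of all genes called is not given here for that setting, so the counts have no background of their own. The part of the neighbours' shift in the members' changes was not tested.

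**Figure D1:**
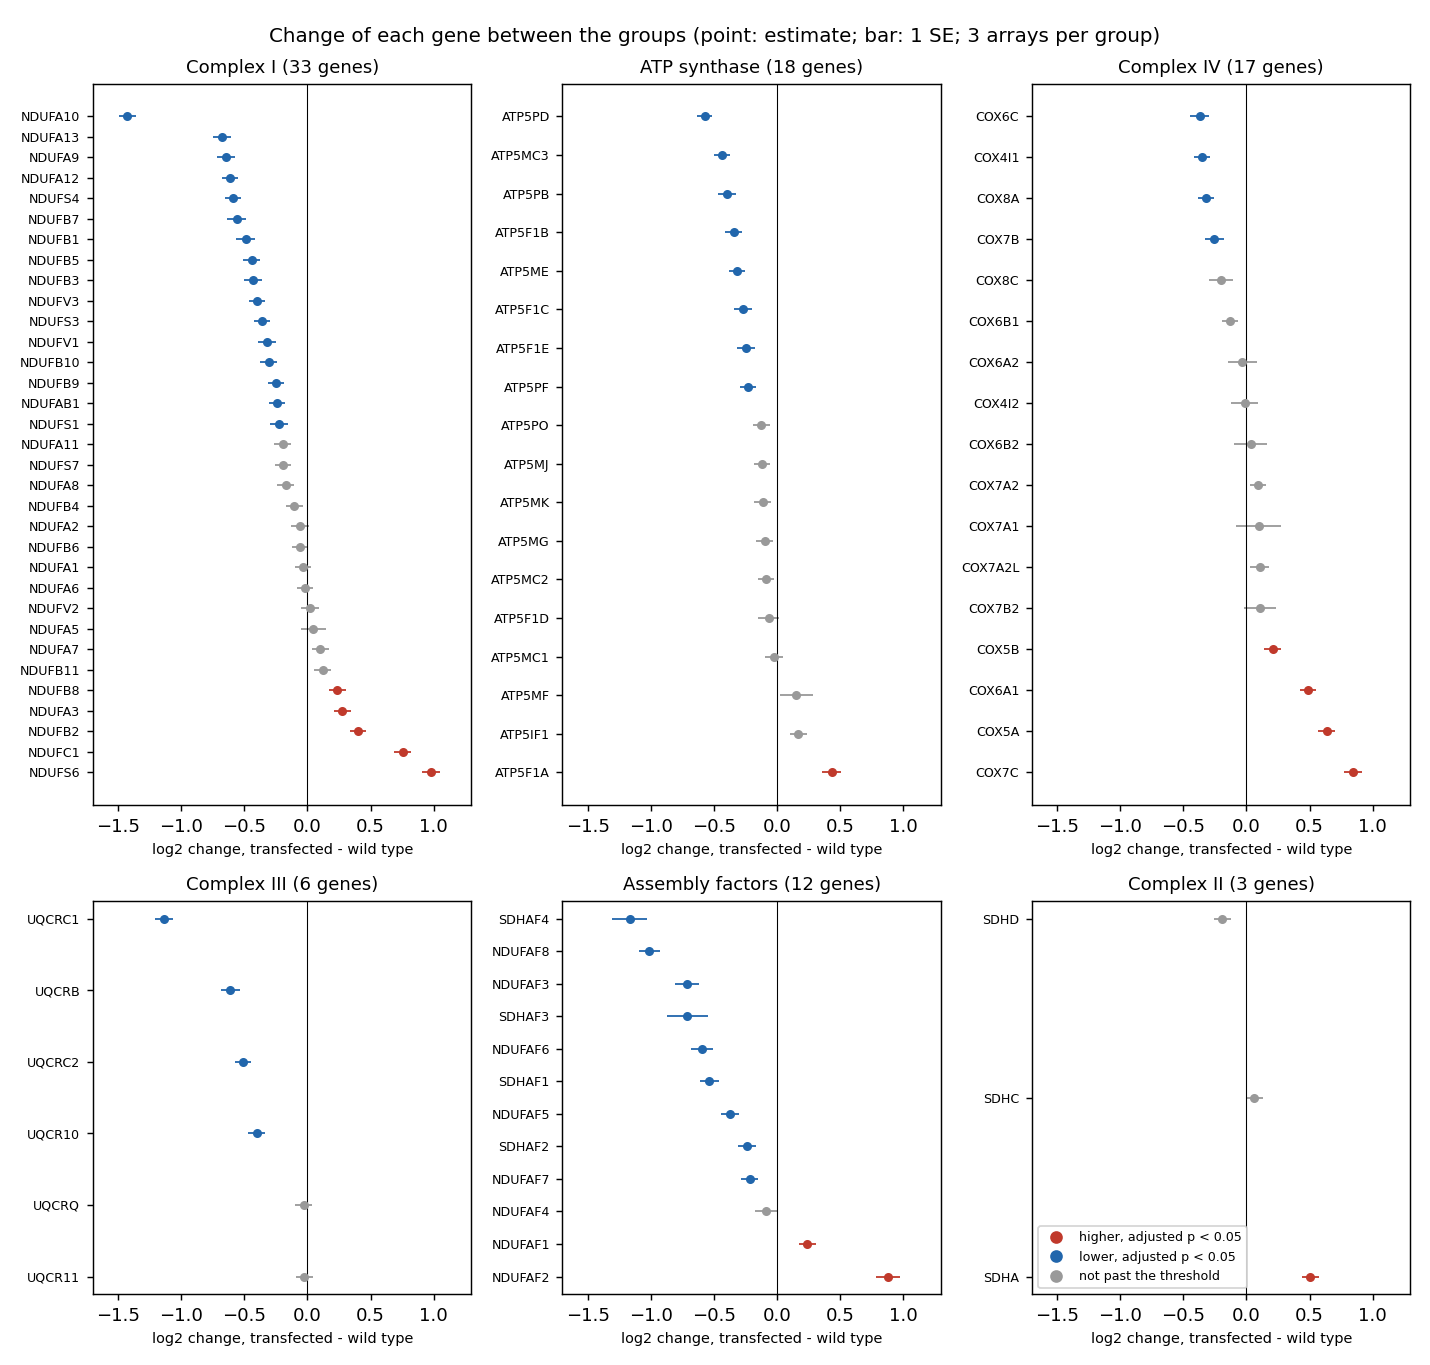
Change of each of the 89 coding members (horizontal axis, log2 change, transfected minus wild type; point, limma estimate; bar, 1 SE; 3 arrays per group), grouped by complex, with calls lower in blue, higher in red and others grey. Falls predominate in complexes I and III, ATP synthase and the assembly factors, while complex IV has 4 calls on each side.

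Complex I, the NADH dehydrogenase and the largest complex of the chain, had more subunit transcripts lower than higher. Of 33 measured subunits, 16 fell (48.5%), 5 rose (15.2%) and 12 did not pass, with a median of -0.20. For this and the counts below, 16.9% of all genes were lower and 15.0% higher, and above level 9 29.3% and 27.0%. NDUFA10, an accessory subunit of the membrane arm, read 11.54, 11.46 and 11.56 in the wild type arrays and 10.06, 10.11 and 10.11 in the transfected arrays. Its groups lay far apart, a 2.69-fold fall (-1.43 on the log2 scale, SE 0.07, adjusted p = 1.02e-05), on its bright probe set, and 4 others with group means of 5.28 or less did not pass (-0.45 with all 5 averaged, adjusted p = 0.00212). Its neighbours read -0.45, and the fall was 0.98 after these were subtracted (adjusted p = 5.13e-05). NDUFA13, also known as the apoptosis-linked protein GRIM-19, fell from 12.09 ± 0.05 to 11.41 ± 0.05 (SD, n = 3; adjusted p = 0.000255), with neighbours at -0.34.

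The core subunits of the matrix arm changed by less. NDUFV1, which binds NADH and the flavin, read 11.14, 11.22 and 11.19 against 10.92, 10.78 and 10.89, a fall by 0.32 without overlap (adjusted p = 0.0108, but 0.278 when its probe sets were averaged). Its iron-sulphur partner NDUFV2 overlapped between the groups at 10.26, 10.26 and 10.23 against 10.33, 10.31 and 10.18 (log2 change 0.02, SE 0.07, adjusted p = 0.866). The iron-sulphur subunit NDUFS1 fell by 0.23 (adjusted p = 0.0397), a call that was lost with the replicate block (adjusted p = 0.0651) and when any 1 of the 6 arrays was left out (up to 0.114). In the ubiquinone-reducing module, NDUFS3 fell by 0.36 (adjusted p = 0.00425) and NDUFS7 read -0.20 (adjusted p = 0.0524). NDUFA9, an accessory subunit of the same module, fell from 11.38 ± 0.06 to 10.74 ± 0.05 (1.57-fold, adjusted p = 0.000341) with neighbours at -0.09.

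By position in the complex, falls and rises were spread out. In the NADH-oxidizing module 5 of 10 subunits fell and 1 rose, in the ubiquinone-reducing module 2 of 4 fell, and in the membrane arm 9 of 19 fell and 4 rose. The rise in the first of these was the largest of all members. NDUFS6, a zinc-binding accessory subunit, read 11.16, 11.10 and 10.99 in wild type and 12.10, 12.04 and 12.05 in transfected arrays, 1.97-fold higher (log2 change 0.98, SE 0.07, adjusted p = 6.02e-05), while its neighbours read 0.08.

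In the membrane arm, NDUFC1 rose from 10.93 ± 0.05 to 11.69 ± 0.04 (1.69-fold, adjusted p = 0.000134), and the neighbours read 0.11. Its other probe set read -0.15, and with both averaged NDUFC1 rose by 0.30 (adjusted p = 0.0139). NDUFB2 rose by 0.40 on each of 2 bright probe sets (adjusted p = 0.00203 in the gene fit), and by 0.23 with a dim one averaged in (0.032). NDUFB8, named after its value was seen, rose by 0.24 (adjusted p = 0.0305, but 0.0515 with the replicate block and up to 0.0901 without 1 array). Probe sets that name NDUFS8 together with microRNAs, and NDUFC2 or NDUFS5 together with other genes, did not pass. The probe set shared by NDUFS3 and PTPMT1 fell by 0.31 (adjusted p = 0.0197 over probe sets), close to the fall of the one of NDUFS3 alone.

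Complex II, succinate dehydrogenase, had 1 of 3 measured subunits higher and none lower. SDHA, the flavoprotein that oxidizes succinate, read 10.89, 10.83 and 10.90 in wild type and 11.38, 11.41 and 11.35 in transfected arrays (1.42-fold, log2 change 0.51, SE 0.06, adjusted p = 0.000763). SDHA has near-identical pseudogenes, and the probe set that names SDHAP1 and SDHAP2 rose by 0.43 (adjusted p = 0.00338 over probe sets), so their RNAs cannot be told apart here. The neighbours of SDHA read 0.41, and after their subtraction it read 0.10 (adjusted p = 0.419), which left complex II without a call. Of the membrane anchors, SDHC read 11.07 ± 0.05 and 11.14 ± 0.06 (adjusted p = 0.583) and SDHD read 10.62 ± 0.04 and 10.43 ± 0.05 without overlap (adjusted p = 0.0666).

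Complex III, which hands electrons from ubiquinol to cytochrome c, had 4 of 6 subunits lower and none higher (median -0.46). UQCRC1, one of the large core proteins, read 11.82, 11.78 and 11.93 in wild type and 10.70, 10.72 and 10.71 in transfected arrays. All transfected arrays were lower by about the same amount, a 2.19-fold fall (log2 change -1.13, SE 0.07, adjusted p = 3.13e-05). Its neighbours read -0.47, and 0.66 of the fall stayed after they were subtracted (adjusted p = 0.000408). The other core protein, UQCRC2, fell from 11.84 ± 0.02 to 11.32 ± 0.04 (adjusted p = 0.00067), with neighbours at -0.09, and all 3 of its probe sets were lower (log2 changes -0.70, -0.51 and -0.46).

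The small subunits of complex III divided. UQCRB, which helps bind ubiquinone, read 11.79, 11.94 and 11.91 against 11.25, 11.33 and 11.23, a fall by 0.61 (adjusted p = 0.000585). Its neighbours read -0.61, and after their subtraction it read 0.00 (adjusted p = 0.978). Of its 4 probe sets, 3 were called lower (log2 changes -1.36, -0.61 and -0.57) and the other read -0.26, and the subtraction was made on the brightest, at -0.61. UQCR10, UQCRQ and UQCR11, named after their values were seen, gave -0.40 (adjusted p = 0.00311), -0.03 and -0.02. The probe set that names UQCRH and UQCRHL read -0.04. CYC1, the cytochrome c1 of the same complex, lies outside the prefixes. It fell by 0.32 (adjusted p = 0.00855) and read -0.01 after the neighbours were subtracted.

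Complex IV, cytochrome c oxidase, moved both ways, with 4 of 17 subunits higher, 4 lower and 9 not past the test (median 0.03). That is 23.5% in each direction, beside 29.3% lower and 27.0% higher of all genes above level 9. The 11 genes with a mean above 9 held all 8 calls. COX7C rose most, from 11.93, 11.85 and 11.77 to 12.67, 12.70 and 12.71 (1.79-fold, log2 change 0.84, SE 0.07, adjusted p = 0.000101). Its neighbours read 0.06, and its 3 probe sets rose by 0.84, 0.81 and 1.26. COX5A, read at 11.37, 11.40 and 11.27 against 12.01, 11.96 and 11.98, rose by 0.64 (adjusted p = 0.000333), and COX6A1 rose from 12.46 ± 0.01 to 12.95 ± 0.02 (adjusted p = 0.000765). Neighbours of both rose too, by 0.39 in each case, and after subtraction COX5A read 0.24 (adjusted p = 0.107) and COX6A1 0.10 (0.382).

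The falls in complex IV were small. COX6C fell by 0.37 (adjusted p = 0.00656; 0.05 after subtraction of neighbours at -0.42, adjusted p = 0.733), and COX4I1, the ubiquitous form of the largest nuclear subunit, fell by 0.35 (adjusted p = 0.00441; -0.11 after subtraction, 0.442). COX4I1 fell on its 2 bright probe sets, by 0.35 and 0.33, while its dim pair read -0.10 and 0.00, and the mean of all 4 did not pass (-0.19, adjusted p = 0.0776). COX8A fell by 0.32 (adjusted p = 0.00587), and COX7B by 0.25 (adjusted p = 0.0385), a call lost when any 1 array but wild type replicate 3 was left out (up to 0.126). COX5B, named after its value was seen, rose by 0.21 (adjusted p = 0.0485; 0.0708 with the replicate block), and this call was lost when any 1 of the arrays was left out. Its neighbours read 0.33, and after their subtraction it read -0.12 (adjusted p = 0.275). With neighbours subtracted, 3 complex IV genes stayed past the threshold.

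Tissue-restricted isoforms of complex IV gave no call. The heart and skeletal muscle forms COX6A2 and COX7A1, the testis forms COX6B2, COX7B2 and COX8C, and COX4I2, known from lung and low oxygen, all had means under 6. Their changes were between -0.20 and 0.11, with overlapping groups. Among the common counterparts, COX6B1 read -0.13 (adjusted p = 0.184), COX7A2 0.09 (0.343) and the supercomplex factor COX7A2L 0.10 (0.372). NDUFA4, now counted to complex IV under the symbol COXFA4 and so outside the prefixes, fell from 12.88 ± 0.05 to 12.59 ± 0.03 (adjusted p = 0.012), and its relative NDUFA4L2 (COXFA4L2) did not pass (log2 change 0.17, adjusted p = 0.544).

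**Figure D2:**
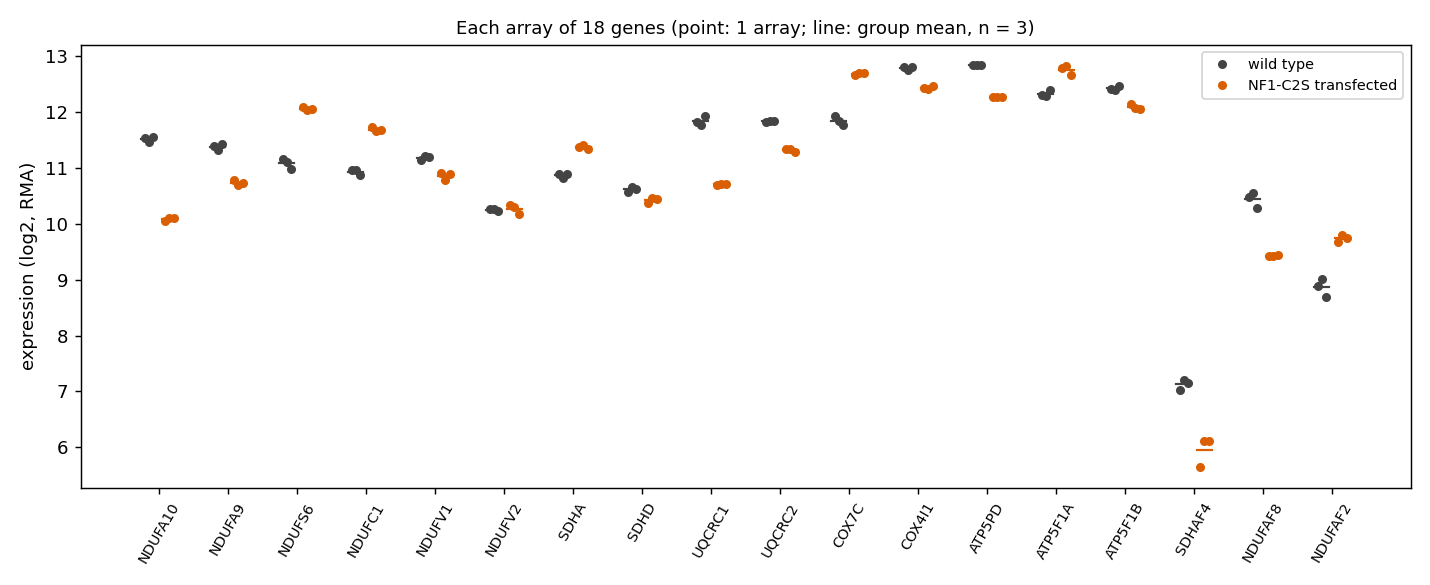
Expression (vertical axis, log2) of 18 members on each array, wild type in grey and transfected in orange, with a line at each group mean (n = 3). The groups overlap for NDUFV2 and are apart for the other 17 genes, and NDUFS6 and COX7C go up where UQCRC1 and NDUFA10 go down.

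In ATP synthase, 8 of 18 genes fell (44.4%), 1 rose (5.56%) and 9 did not pass (median -0.12). The catalytic head holds alternating alpha and beta subunits, and their transcripts went opposite ways. ATP5F1A, the alpha subunit, read 12.31, 12.29 and 12.39 in wild type and 12.80, 12.82 and 12.67 in transfected arrays, a rise by 0.43 (SE 0.07, adjusted p = 0.00317). ATP5F1B, the beta subunit with the catalytic sites, read 12.42, 12.40 and 12.47 against 12.14, 12.07 and 12.05, a fall by 0.34 (SE 0.07, adjusted p = 0.00572). Both sets of arrays were free of overlap, and both calls held after the neighbours were subtracted (0.26 and -0.25, adjusted p = 0.0474 and 0.0408). ATP5F1C, the rotating gamma subunit, fell by 0.27 (adjusted p = 0.0276, but up to 0.0798 without 1 array and 0.0743 after subtraction). On probe sets that are not of the _x_at or _s_at kind, ATP5F1A read 0.10 (adjusted p = 0.466; 0.27 with its probe sets averaged, 0.0173) and ATP5F1C 0.10 (0.607). These probe sets were dim, with wild type means of 4.46 for ATP5F1A and 5.97 for ATP5F1C.

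The peripheral stalk, which holds the head still, had 3 of 4 genes lower. ATP5PD read 12.84, 12.84 and 12.85 in wild type and 12.27 in each transfected array (1.49-fold lower, adjusted p = 0.000324), and ATP5PB fell by 0.39 (adjusted p = 0.00393). On other kinds of probe set than _x_at and _s_at, ATP5PD read -0.39 (adjusted p = 0.12) and ATP5PB 0.15 (0.425). Those probe sets were dim, with wild type means of 5.39 for ATP5PD and 4.23 for ATP5PB, so they say little of either gene. The proton-carrying c ring is made of 1 protein encoded by 3 genes. Of these, ATP5MC3 fell from 12.94 ± 0.04 to 12.51 ± 0.04 (adjusted p = 0.00173), while ATP5MC1 and ATP5MC2 read -0.02 and -0.09 (adjusted p = 0.867 and 0.378). In the rest of the membrane part, 1 of 5 genes fell and none rose. ATP5MG and ATP5MJ did not pass on their brightest probe sets (-0.10 and -0.12), but each was called lower on another. Those read -0.35 for ATP5MG and -0.30 for ATP5MJ (adjusted p = 0.024 and 0.0296 over probe sets), with wild type means of 9.30 and 10.16. The remaining probe sets of ATP5MG did not pass.

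ATP5IF1, which blocks ATP hydrolysis when the proton gradient collapses, differed in direction between its probe sets. Its brightest probe set read 9.76 ± 0.02 and 9.93 ± 0.08 (log2 change 0.17, adjusted p = 0.117). A second read -0.14, and the dimmest read 7.80 ± 0.15 and 6.68 ± 0.31, a fall by 1.12 (adjusted p = 0.00163 over probe sets). The mean of the 3 was -0.36 (adjusted p = 0.0133). Similarly, 1 dim probe set names ATP5MF alone (0.15), and the bright one that it shares with ARMC2-AS1 read 0.18 (adjusted p = 0.126).

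Assembly factors build the complexes but do not stay in them, and of 12 measured, 9 fell (75%) and 2 rose (16.7%), with a median of -0.46. SDHAF4, which helps put the flavoprotein SDHA together with SDHB, read 7.03, 7.20 and 7.15 in wild type and 5.64, 6.12 and 6.12 in transfected arrays, 2.24-fold lower (log2 change -1.17, SE 0.14, adjusted p = 0.000542), with neighbours at -0.03. NDUFAF8 read 10.48, 10.55 and 10.29 against 9.43, 9.42 and 9.44 (2.01-fold lower, adjusted p = 9.99e-05), although its other probe sets, under the median of all, read 0.07 and 0.08 and the average of all 3 fell by 0.29 (adjusted p = 0.0392). NDUFAF3 fell by 0.71 (adjusted p = 0.000822), or by 0.18 after neighbours at -0.53 were subtracted (adjusted p = 0.287).

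All 4 SDHAF genes, the assembly factors of complex II, were lower while SDHA was higher. SDHAF3, SDHAF1 and SDHAF2, named after their values were seen, fell by 0.71, 0.54 and 0.24 (adjusted p = 0.0126, 0.0011 and 0.037), and the call of SDHAF2 was lost with the replicate block (adjusted p = 0.0578) and without 1 array (up to 0.11). That of NDUFAF7 (log2 change -0.22, adjusted p = 0.04), also named after its value was seen, was lost with both too (0.0542 and up to 0.112). Against this, NDUFAF2, a chaperone of late complex I assembly, rose from 8.86 ± 0.16 to 9.74 ± 0.06 (1.84-fold, adjusted p = 0.000324), and NDUFAF1, which acts earlier, rose by 0.24 (adjusted p = 0.0292, and up to 0.0846 without 1 array). The 5 noncoding members, all dim, did not pass.

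Over probe sets in place of genes, 71 of the 196 passed, 52 lower and 19 higher, that is 26.5% and 9.69% beside 11.4% and 10.8% of all probe sets (22.2% called in either direction). The groups did not overlap in 112 of the 196, against 34.9% of all probe sets. These shares compare sets of unlike level. The wild type mean was under the median of 4.82 in 41 of the 196, but in 27315 of all 54613 probe sets. No share at a matched level was taken for probe sets. No member had probe sets called in opposite directions, and in 13 of the 51 members with several probe sets more than 1 was called. The probe sets that name ATP5MF-PTCD1 with PTCD1 rose by 1.00 and 0.66 (adjusted p = 5.94e-05 and 0.0015). That RNA joins ATP5MF to the next gene, so these values do not speak of ATP5MF alone.

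Other genes of the pathway were taken from lists. Among assembly factors outside the prefixes, 16 of 31 fell (51.6%), 2 rose (6.45%) and 13 did not pass (median -0.39). CMC1, which stabilizes the first catalytic subunit of complex IV, read 10.16, 10.36 and 10.15 against 8.51, 8.65 and 8.71 (log2 change -1.60, SE 0.09, adjusted p = 2.2e-05). BCS1L, which inserts the Rieske protein into complex III, fell by 1.26 (adjusted p = 1.89e-05). Neighbours of CMC1 and BCS1L read -0.53 and -0.32. After their subtraction CMC1 read -1.07 and BCS1L -0.94 (limma adjusted p = 0.000116 and 6.64e-05). The rises were those of PET117 (0.70, adjusted p = 0.0024, and 0.23 after subtraction of neighbours, limma adjusted p = 0.156) and UQCC1 (0.43, adjusted p = 0.00426, but 0.05 with its probe sets averaged, adjusted p = 0.673).

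Among 8 listed electron carriers and dehydrogenases, 4 fell and 1 rose. The falls include that of CYC1, already given under complex III. They also include DHODH (log2 change -0.34, adjusted p = 0.0356), whose call was lost with probe sets averaged (0.13) and after subtraction of neighbours (0.0922). ETFDH, which passes electrons from fatty acid oxidation to ubiquinone, fell from 7.79 ± 0.14 to 6.76 ± 0.04 (adjusted p = 9.99e-05), and its partner ETFB fell by 0.55 (adjusted p = 0.00108). GPD2, the enzyme of the glycerol phosphate shuttle, rose from 8.55 ± 0.10 to 9.36 ± 0.04 (adjusted p = 0.000179). The citric acid cycle had 5 of 15 genes lower and 4 higher (median 0.02). These are 33.3% and 26.7%, near the 29.3% and 27.0% of all genes above level 9. There OGDH (log2 change -1.31) and SUCLA2 (-0.86), the ATP-forming succinyl-CoA ligase subunit, fell, while SUCLG2 (1.34), its GTP-forming counterpart, and PDHB (0.74) rose.

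Regulators of mitochondrial biogenesis were also split, with 4 of 16 lower, 4 higher and 8 not past. That is 25.0% in each direction, near the 29.3% lower and 27.0% higher of all genes above level 9. Over all genes the shares were 16.9% and 15.0%. NRF1 read -0.09 (adjusted p = 0.678), the mitochondrial transcription factor TFAM -0.02 (0.882) and the coactivator PPARGC1A, dim in both groups at 3.41 and 3.42, 0.01 (0.955). TFB1M (log2 change -0.85) and PPARGC1B (-0.54) fell, and SSBP1 (0.47) and GABPB1 (0.47), a partner of GABPA, rose. With probe sets averaged, GABPB1 read 0.24 (adjusted p = 0.091). Further calls of the list were named after their values were seen. ESRRA read -0.29 (adjusted p = 0.012) and stayed past the threshold with the replicate block, neighbours subtracted or probe sets averaged (adjusted p = 0.0252, 0.0134 and 0.0282). The calls of YY1, POLG and TFB2M depended on the setting. YY1 fell by 0.24 (adjusted p = 0.043; 0.058 with the replicate block), but rose by 0.21 with its probe sets averaged (0.0353). POLG and TFB2M rose by 0.33 and 0.36 and read 0.03 and 0.05 after subtraction of neighbours (adjusted p = 0.854 and 0.769). The phosphate carrier SLC25A3 fell by 0.43 and the channel VDAC2 rose by 0.33 (-0.01 after subtraction of neighbours) among 6 transport genes. Of 7 measured genes of mitochondrial DNA, 2 fell and none rose: COX3 by 0.51 (adjusted p = 0.0339) and ATP6 by 0.30 (adjusted p = 0.0366).

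**Figure D3:**
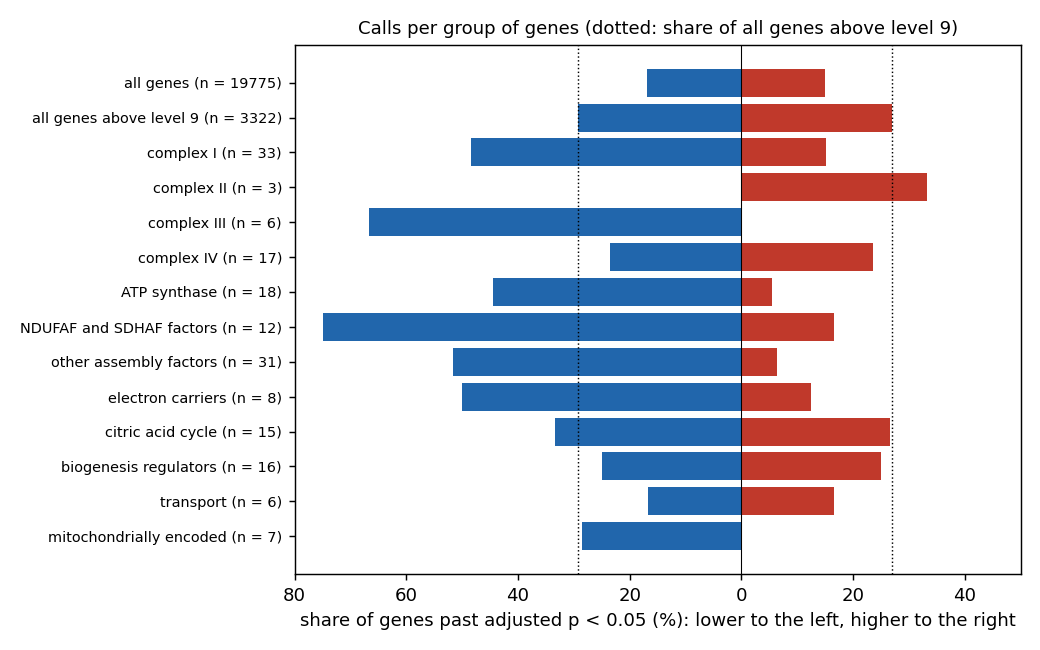
Share of genes called (horizontal axis, percent; lower to the left in blue, higher to the right in red) in each complex and list, with n beside each name and dotted lines at the shares of all genes above level 9, 29.3% lower and 27.0% higher. The assembly factors reach 75% lower and complex III 66.7%, while complex IV and the biogenesis regulators are even on both sides.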

How the data were processed

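RNA of 6 samples was read on Affymetrix arrays with 54675 probe sets. The values are log2 expression as deposited by the authors, made with RMA per the submitters' processing notes; the sources used here name no version or settings. The number of arrays, 3 per group, limits the precision. The 62 control probe sets were left out. Probe sets were named through the platform annotation, and each gene was read by its brightest probe set naming only that gene. Groups were compared with limma 3.58.1 in R 4.3.3 (lmFit, eBayes, Benjamini-Hochberg over 19775 genes, threshold 0.05; a second fit over 54613 probe sets), tested on simulated data.

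Members and lists were chosen with earlier results of these data known. Named genes were, in each complex, up to 3 largest rises and up to 3 largest falls past the threshold, core subunits, isoform families and ATP5IF1; others are said to be named after their values were seen. NDUFA4, planned as a complex IV member, is outside the prefixes under its current symbol COXFA4. Genes of mitochondrial DNA were taken by chromosome, as the annotation omits their prefix. Genes that no probe set names were not analysed here. Promoters are RefSeq's, GRCh38.p14; the NRF1 search was loosened after promoters were seen.

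Same-numbered arrays deviated together (correlations 0.398, 0.238 and 0.140 of deviations from the group means), although wild type 2 with transfected 3 also reached 0.142; every same-numbered pair passing 0.1, the replicate number was taken as a pairing and fitted as a block as an alternative. Others were normalization, array weights, variance prior, probe set choice, a filter, subtraction of neighbours and leaving out each array.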

Additional observations from a re-analysis of the deposited data

How the results depend on the processing

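No member called in the fit reported was called in the opposite direction under any alternative run. Counts of lower and higher members were 40 and 13 with quantile normalization, 35 and 12 with median centring, 41 and 13 with cyclic loess, 49 and 15 with trend and robust moderation, and 33 to 35 and 10 to 11 without 1 array. With the replicate block they were 38 and 11, and beside the calls given above as lost it changed no other. Without _x_at and _s_at probe sets only 79 members could be tested: 23 were lower and 8 higher, with 12 calls in complex I, 0 in complex II, 4 in complex IV, 5 in ATP synthase and 6 among assembly factors. Beside the fit reported, 27 calls were lost, some for want of such a probe set. The 4 gained were ATP5IF1, ATP5MG, ATP5MJ and NDUFA6, all lower. NDUFA6 read -0.02 in the fit reported, -0.57 here (adjusted p = 0.00077) and -0.30 with its probe sets averaged (0.0065). With neighbours subtracted, 7 members were higher, with 0 calls in complex II and 3 in complex IV. The share of all genes called is not given here for these alternatives. Of all genes called, 45.5% to 49.2% were higher across the settings. Complex II had 2 calls with trend and robust moderation and 2 among genes above the median of all probe sets, and complex IV had 5 with the mean of probe sets. The median change of the members, -0.16, became -0.16 with quantile normalization, -0.18 with array weights, -0.13 with the mean of probe sets, -0.06 without _x_at and _s_at probe sets, -0.17 among genes above the median and -0.11 with neighbours subtracted, and ran from -0.18 to -0.13 without 1 array. Restricting to genes above level 9, chosen after seeing the data, left 1869 of 6300 calls. Among members called in either fit, these 3 alternatives turned signs as follows. The sign turned for ATP5IF1 with the mean of probe sets (-0.36) and, without _x_at and _s_at probe sets, for ATP5IF1 (-1.12), ATP5F1C (0.10), ATP5PB (0.15), COX4I1 (0.0033), NDUFAF8 (0.08) and NDUFB1 (0.09), where another, dimmer probe set stands for the gene. With neighbours subtracted it turned for COX6C (0.047), UQCRB (0.0040), COX5B (-0.12), NDUFB9 (0.09) and NDUFAB1 (0.0007), none of them past the threshold then. The cause of the other shifts was not tested.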
